A study of Homo sapiens with 2 samples.

Results

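Genes of p53-linked and mitochondrial cell death were compared between cultures of MDA-MB-231, a human breast cancer line of the triple-negative kind, that had received siRNA against KMO (siKMO) or a control siRNA (siControl) for 48 h. KMO encodes kynurenine 3-monooxygenase, a mitochondrial enzyme of tryptophan breakdown. The set holds 35 genes in 7 roles: regulators of p53, genes that p53 induces, BH3-only proteins, pore-forming effectors, pro-survival BCL2 proteins, the apoptosome with its regulators, and other caspases. Every probe set that the platform annotation assigns to exactly 1 of these genes was used, which gave 108 probe sets for 33 genes, out of 19775 named genes on the array. BBC3, which encodes the BH3-only protein PUMA, and FDXR, a mitochondrial reductase that p53 induces, have no such probe set and were not analysed here. RNA of whole cultures was hybridised to 2 Affymetrix U133 Plus 2.0 arrays, 1 per condition, so no value below has a replicate error and no test between conditions was possible. The array names carry shLUC and shK421, strings usual for short hairpin constructs, while the titles and the treatment label name siRNA, which the grouping follows.

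The protein p53 is a transcription factor that switches on genes of cell cycle arrest, repair, metabolism and death after DNA damage and other stress, and MDM2 and MDM4 hold it in check. In the mitochondrial route to death, BH3-only proteins bind pro-survival BCL2 proteins or activate BAX and BAK1, which open the outer mitochondrial membrane. Cytochrome c then leaves the mitochondria and, with APAF1, builds the apoptosome that activates caspase-9. A gene is called p53-induced here for what is known of it, or of a close relative, in other cells.

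Levels are deposited log2 values after robust multi-array averaging (RMA), and differences are siKMO minus siControl, so that 1 stands for 2-fold. The probe set of a gene with the highest average of the 2 arrays stands for the gene, and genes with an average of 6 or more are called measured. All 15 genes of unrelated tissues with a probe set lay under that minimum, with a median level of 3.25 in the siKMO array and 3.39 in the siControl array. Of the marker genes of the line, VIM stood at 12.96 and 12.90 and CD44 at 11.31 and 11.43 in the siKMO and siControl arrays, while the hormone receptor genes ESR1 and PGR lay under the minimum in both. ERBB2, which is not amplified in such lines, stood above it, at 7.37 in siKMO and 7.44 in siControl. The 3 probe sets of KMO lay between 2.35 and 2.92 in the siKMO array and between 2.11 and 2.95 in the siControl array, at the level of unrelated tissues, so the knockdown could not be checked. In RNA of whole cultures, fewer cells of a kind and less RNA per cell cannot be told apart, and an equal shift of all transcripts is removed by the normalization.

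As a set, the genes showed no common shift. Of 29 measured members, 16 had a higher and 13 a lower level in siKMO, against 54.8% of all 8997 measured genes that were higher. The median difference was 0.07, beside 0.04 over all measured genes. No member was at least 2-fold higher and 1, TP53INP1, was at least 2-fold lower, with 0.856% and 1.39% of all measured genes past the same limits. At 1.5-fold, 3 members were higher (AEN, TIGAR and CASP2) and 2 lower (TP53INP1 and GADD45B), which is 10.3% and 6.90% of the measured members, beside 5.19% and 5.41% of all measured genes. PMAIP1, BCL2L1 and MDM2 lay just short of that limit, at -0.58, -0.57 and 0.54. Of the 29 members, 15 differed by less than 0.25 in absolute value, as did 56.7% of all measured genes. BMF, HRK, BCL2 and BCL2A1 lay under the level minimum.

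**Figure D1:**
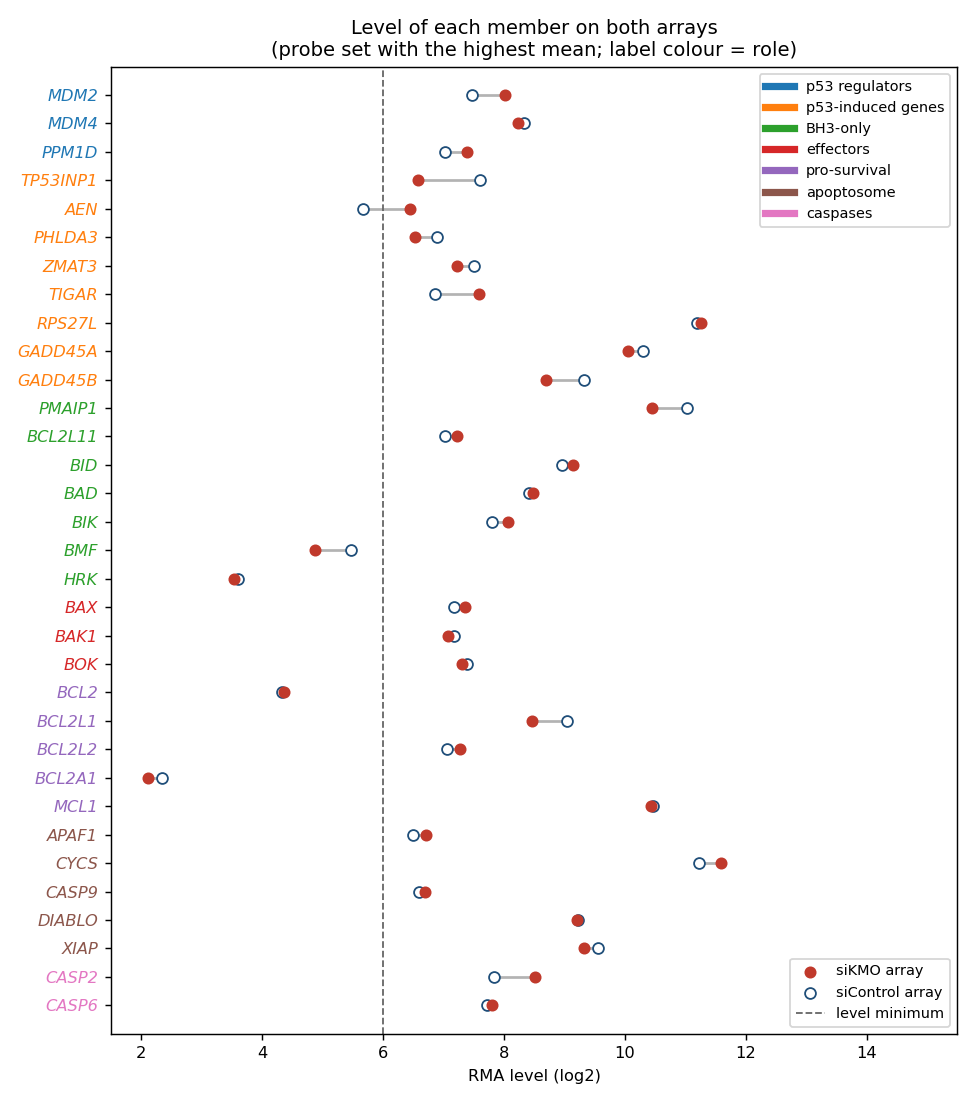
RMA level (log2, horizontal axis) of each of the 33 genes with a probe set (rows, label colour by role), with siKMO as filled points and siControl as open points, 1 array each and no error bars because there are no replicates. The widest gap is that of TP53INP1, at 6.58 in siKMO and 7.60 in siControl, and BMF, HRK, BCL2 and BCL2A1 lie left of the dashed level minimum of 6.

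The regulators of p53 differed in both directions. MDM2, the ubiquitin ligase that marks p53 for degradation and is itself a p53-induced gene, stood at 8.01 in the siKMO array and 7.48 in the siControl array with its brightest probe set (229711_s_at), a 1.45-fold higher level. Its other measured probe set was close to the minimum, at 5.97 and 6.11, and differed by -0.13, so the direction for MDM2 was not settled between probe sets. A further probe set just under the minimum stood at 6.03 in siKMO and 5.54 in siControl. MDM4, the partner of MDM2 that blocks the activating part of p53, stood at 8.23 in siKMO and 8.34 in siControl with 1 measured probe set and at 7.98 and 8.40 with the other, so both were lower, by 0.11 and 0.41. Of its 4 probe sets under the minimum, the brightest was higher, at 5.81 in siKMO and 5.46 in siControl, and the others differed by -0.46 to 0. PPM1D, the phosphatase WIP1 that shuts off damage signalling, stood at 7.38 in siKMO and 7.03 in siControl, a difference of 0.35. Its weaker probe set, under the minimum, differed by 0.45.

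The 8 measured genes placed in the p53-induced role split into 3 higher and 5 lower, with a median of -0.27. Over all measured genes, 54.8% were higher and the median was 0.04. Members placed in other roles, such as MDM2, can be p53-induced as well and are not in this count. TP53INP1, a nuclear protein that promotes death and autophagy, had the largest difference of all members, at 6.58 in the siKMO array and 7.60 in the siControl array (225912_at), a 2.03-fold lower level. Only 1.26% of all measured genes had a lower difference. Its other 2 probe sets lay far under the minimum, at up to 4.16, and differed by 0.13 and 0.42, so no second measured probe set backs this value. GADD45B, a stress sensor that activates the p38 and JNK kinases, stood at 8.70 in siKMO and 9.32 in siControl, a 1.54-fold lower level. It is placed in this role with its relative GADD45A, and its induction by p53 was not tested. Its 3 measured probe sets differed by -0.62, -0.55 and -0.49, and a 4th under the minimum by -0.50, so the 4 gave nearly the same difference. The related sensor GADD45A stood at 10.05 in siKMO and 10.30 in siControl, a difference of -0.25 with its only probe set. PHLDA3, which keeps the kinase AKT from the membrane, stood at 6.53 in siKMO and 6.89 in siControl, and both of its probe sets differed by -0.35. ZMAT3, a zinc finger protein that binds RNA, ran from -0.29 to 0.13 over 4 measured probe sets, with 3 of them lower.

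Of the 3 higher genes of this role, TIGAR and AEN had the larger differences. TIGAR, a phosphatase that lowers glycolytic flux, stood at 7.59 in the siKMO array and 6.86 in the siControl array with its only probe set (219099_at), a 1.66-fold higher level. AEN, a nuclease that degrades DNA and RNA in dying cells, stood at 6.45 in siKMO and 5.68 in siControl. Because its siControl level lies under the minimum, it is given as at least 1.36-fold higher, with 6 in place of that level. RPS27L, a relative of the ribosomal protein RPS27, stood at 11.25 in siKMO and 11.19 in siControl, and its 2 measured probe sets differed by 0.06 and 0.07. By deposited values, TIGAR and AEN lay above 97.4% and 97.7% of all measured genes in their difference, while TP53INP1 and GADD45B lay near the other end.

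Promoter sequences, from 250 bases before to 50 after each transcription start, were taken from RefSeq (GRCh38.p14) for 29 of the 35 members, in 48 windows, and searched on both strands. The stretches below show these motifs in their place before members whose values are given here. Capitals mark the motif and positions count backwards from the start. The p53 decamer, 1 decamer of the p53 consensus and not the full element, was found before 5 of these 29 genes (AEN, BAK1, CASP9, FDXR and RPS27L). This is a share of 17.2%, beside 8.06% of the 27305 genes in the table. The E2F motif, spelled TTTCCCGC or TTTGGCGC, was found before AEN and MDM2, 6.9% of the members and 2.75% of all genes. The core of the cAMP response element, TGACGT, was found in the windows of 6 members (20.7%, beside 9.64% of all genes), and the ATF4 element TGATGNAA before BCL2A1 and HRK (6.9%, beside 4.46%). The overlapping windows of a gene with several starts count here as 1 gene. The members have more windows per gene (48 for 29 genes) than all genes (35116 for 27305), which raises their share. By window, the p53, E2F, cAMP response and ATF4 motifs were in 5, 3, 7 and 2 of 48. Of all windows, 6.63%, 2.27%, 7.98% and 3.62% held them. Matches of different motifs do not overlap in the windows of the members. The 2 cAMP response matches of PPM1D, on opposite strands, do overlap, at -61 to -56 and -59 to -54. The stretch of AEN (chr15:88621121-88621335, plus strand) holds an E2F motif at -199 to -192 and the p53 decamer at -34 to -25. Those of RPS27L (chr15:63157507-63157556, minus strand), BAK1 (chr6:33580320-33580369, minus strand) and CASP9 (chr1:15524949-15524998, minus strand) hold the p53 decamer. That of MDM2 (chr12:68807922-68807967, plus strand) holds the E2F motif on the opposite strand. Those of TIGAR (chr12:4321120-4321165, plus strand), PMAIP1 (chr18:59899920-59899965, plus strand, with the motif on the opposite strand) and PPM1D (chr17:60600112-60600159, plus strand, a full palindrome) hold the cAMP response core.
AEN: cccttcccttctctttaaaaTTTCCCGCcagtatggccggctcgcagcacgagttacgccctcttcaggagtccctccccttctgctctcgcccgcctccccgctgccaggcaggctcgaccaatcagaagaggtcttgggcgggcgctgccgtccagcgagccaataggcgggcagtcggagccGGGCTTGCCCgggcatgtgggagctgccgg
RPS27L: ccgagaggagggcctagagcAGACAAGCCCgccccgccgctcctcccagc
BAK1: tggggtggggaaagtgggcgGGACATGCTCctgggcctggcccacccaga
CASP9: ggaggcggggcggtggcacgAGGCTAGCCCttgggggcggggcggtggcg
MDM2: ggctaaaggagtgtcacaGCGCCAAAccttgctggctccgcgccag
TIGAR: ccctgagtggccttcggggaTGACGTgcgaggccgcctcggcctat
PMAIP1: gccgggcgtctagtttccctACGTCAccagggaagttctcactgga
PPM1D: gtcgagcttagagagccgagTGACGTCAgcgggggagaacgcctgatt
Measured members with the p53 decamer differed by at least 0.45 (AEN), 0.06 (RPS27L), -0.10 (BAK1) and 0.09 (CASP9). Of the members with the E2F motif, AEN differed by at least 0.45. MDM2 differed by 0.54 with its brightest probe set and by -0.13 with its other measured probe set. The 6 members with the cAMP response core differed by 0.73 (TIGAR), -0.58 (PMAIP1), 0.35 (PPM1D), 0.07 (BAD), 0.36 (CYCS) and -0.22 (XIAP). A match describes these letters only. Sequence outside the windows was not searched, so a member without a match here can have such a motif elsewhere.

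**Figure D2:**
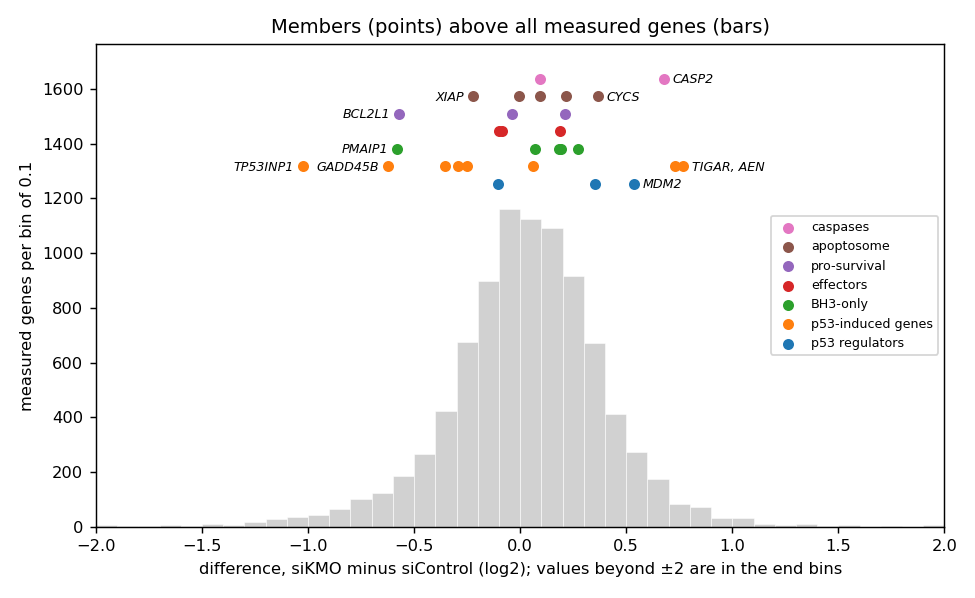
Differences of the 29 measured members (points, a row and colour for each role) above the distribution of all 8997 measured genes (grey bars, genes per bin of 0.1), with the difference siKMO minus siControl on the log2 scale as horizontal axis. Most members lie over the centre of the distribution, with TP53INP1 at -1.02 at the low end and TIGAR and AEN at 0.73 and 0.77 at the high end.

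Among BH3-only proteins, the sensors that start the mitochondrial route, PMAIP1 stood apart from the others. PMAIP1, the protein NOXA, which binds MCL1 and promotes its degradation, stood at 10.44 in the siKMO array and 11.02 in the siControl array with 1 probe set (204285_s_at) and at 9.50 and 10.10 with the other. Both probe sets were lower, by 0.58 and 0.60, so the first fell just short of 1.5-fold and the second just passed it. The other 4 measured BH3-only genes were all slightly higher with their brightest probe sets. BIK, a BH3-only protein of the endoplasmic reticulum, stood at 8.07 in siKMO and 7.80 in siControl. BID, which caspase-8 cuts to link death receptors to mitochondria, stood at 9.14 in siKMO and 8.96 in siControl, and its 3 probe sets differed by 0.15 to 0.27. BCL2L11, the protein BIM, stood at 7.22 in siKMO and 7.03 in siControl, but its 3 measured probe sets ran from -0.03 to 0.19. BAD, which growth factor kinases inactivate, stood at 8.49 in siKMO and 8.42 in siControl. BMF, which is tied to the cytoskeleton, stood at 4.88 in siKMO and 5.47 in siControl, and HRK at up to 3.53 and 3.61, all under the minimum, so no fold is given.

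The pore-forming effectors differed little with their brightest probe sets. BAX stood at 7.36 in the siKMO array and 7.18 in the siControl array with 1 probe set and at 7.34 and 6.90 with the other, so both were higher, by 0.19 and 0.44. BAK1 stood at 7.08 in siKMO and 7.18 in siControl, and BOK, a less studied relative of both, at 7.30 and 7.39. The role had a median of -0.09, and its 3 genes all differed by less than 0.25 with their brightest probe sets.

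The pro-survival proteins differed gene by gene, with BCL2L1 lower in the siKMO array. BCL2L1, which encodes BCL-XL, stood at 8.47 in siKMO and 9.04 in siControl with its brightest probe set (212312_at), a 1.49-fold lower level. Its other 2 measured probe sets stood at 6.25 and 6.02 in siKMO, against 6.75 and 6.74 in siControl, and differed by -0.50 and -0.73. A 4th, just under the minimum, stood at 5.70 and 6.23, so all 4 were lower in siKMO. MCL1, a short-lived pro-survival protein, stood at 10.43 in siKMO and 10.47 in siControl, and its 5 measured probe sets ran from -0.04 to 0.41. BCL2L2, which encodes BCL-W, stood at 7.27 in siKMO and 7.06 in siControl, a difference of 0.21. BCL2 itself stood at 4.37 and 4.33 and BCL2A1 at 2.12 and 2.34 in the siKMO and siControl arrays, both at the level of unrelated tissues.

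Genes of the apoptosome differed by -0.22 to 0.36 with their brightest probe sets. CYCS, which encodes cytochrome c, stood at 11.59 in siKMO and 11.23 in siControl, a 1.29-fold higher level with its only measured probe set. APAF1, the scaffold of the apoptosome, stood at 6.72 in siKMO and 6.50 in siControl with its only measured probe set. Its probe sets under the minimum differed by 0.09 and 0.25. CASP9, the initiator caspase that the scaffold activates, stood at 6.70 in siKMO and 6.60 in siControl, with its other measured probe set at -0.11. DIABLO, the mitochondrial protein that relieves caspases of their inhibitors, stood at 9.21 in siKMO and 9.22 in siControl. XIAP, the inhibitor of caspases that DIABLO displaces, stood at 9.33 in siKMO and 9.55 in siControl. All 5 measured probe sets of XIAP were lower in siKMO, by 0.14 to 0.38, while 2 probe sets under the minimum were higher.

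Of the other 2 caspases, CASP2 was higher. CASP2, an initiator caspase activated on the PIDD1 platform after damage and failed division, stood at 8.51 in the siKMO array and 7.83 in the siControl array with its brightest probe set (226032_at), a 1.60-fold higher level. Its other 2 measured probe sets stood at 6.66 and 6.60 in siKMO, against 6.31 and 6.14 in siControl, so all 3 were higher, by 0.35 to 0.68. Of its 4 probe sets under the minimum, 3 were higher and 1 differed by -0.06. CASP6, an executioner caspase, stood at 7.81 in siKMO and 7.72 in siControl, and its 2 probe sets differed by 0.09 and 0.15.

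**Figure D3:**
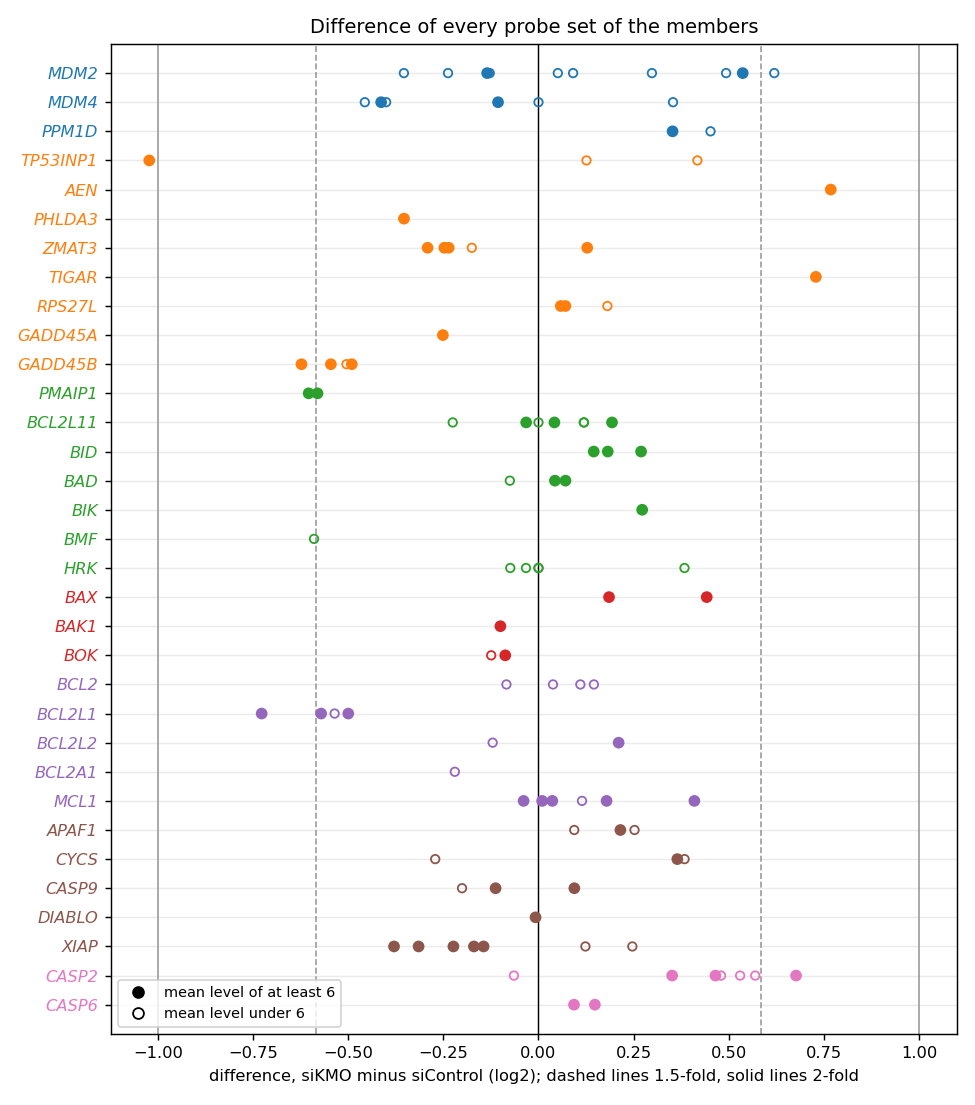
Difference siKMO minus siControl (log2, horizontal axis) of each of the 108 probe sets of the members, 1 row per gene, with filled points for probe sets with a mean level of at least 6 and open points for those under it. GADD45B, PMAIP1 and BCL2L1 have all points left of 0, whereas the points of MDM2 and MCL1 spread to both sides.

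Probe sets of a gene are not replicates of a culture, since all of them were read on the same 2 arrays. Their agreement shows only how alike they read a transcript's difference. Of 16 members with at least 2 measured probe sets, 11 had all of them in 1 direction, 6 higher and 5 lower, beside 72.5% of the 3777 such genes on the array. The range of differences between the probe sets of a gene had a median of 0.23 over these members and 0.15 over all such genes. At a limit of 1.25-fold, chosen after the values were seen, all measured probe sets were lower in GADD45B, PMAIP1 and BCL2L1 and higher in CASP2. These are 3 and 1 of the 16 genes, beside 7.86% and 9.69% of all such genes. The widest range among the members was that of MDM2, at 0.67. Identical values on both arrays occurred in 4 of the 108 probe sets (3.70%), all of them under the minimum, beside 9.46% of all probe sets.

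Further genes of the same pathways also differed in both directions. Of 14 measured further p53 targets, 6 were higher and 8 lower, with a median of -0.10, beside 54.8% higher and a median of 0.04 over all measured genes. At 1.5-fold, 3 of them (21.4%) were lower, beside 5.41% of all measured genes: the growth factor GDF15 (7.35 in siKMO, 8.65 in siControl), the stress sensor SESN2 (6.14 and 6.91), and CDKN1A, the cyclin-dependent kinase inhibitor p21 (7.72 and 8.45). TP53I3, an oxidoreductase named because it was the only 1 of the list at least 1.5-fold higher (7.14%, beside 5.19% of all measured genes), stood at 6.80 in siKMO and 6.18 in siControl. The value of GDF15 rests on 1 measured probe set, and those of CDKN1A and TP53I3 on the only probe set of each. The probe sets of GDF15 under the minimum differed by up to 0.21. Among p53 relatives and damage kinases, 5 of 6 were higher, again beside 54.8% of all measured genes, led by the checkpoint kinase CHEK1 (8.29 in siKMO, 7.69 in siControl), followed by ATR at 0.43 and the deubiquitinase USP7 at 0.20.

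In the death receptor route, 2 of 8 measured genes were higher (beside 54.8% of all measured genes) and 6 lower, with a median of -0.17 and none at 1.5-fold. The TNF receptor TNFRSF1A differed by -0.47, the receptor FAS by 0.44, and CFLAR, which blocks caspase-8, by -0.43, with its 6 measured probe sets between -0.45 and -0.21. Of 3 measured further caspases, the inflammatory caspases CASP1 and CASP4 differed by 0.53 and 0.29 and CASP8 by 0. Among caspase inhibitors and their antagonists, BIRC5, which encodes survivin, stood at 9.81 in siKMO and 9.22 in siControl, the mitochondrial protease HTRA2 differed by 0.23, and XAF1 by -0.21. BNIP3 and BNIP3L, mitochondrial receptors that mark the organelle for autophagy, were lower. BNIP3 stood at 10.81 in siKMO and 11.64 in siControl and BNIP3L at 9.35 and 10.22, a 1.78-fold and a 1.82-fold lower level. BCL2L12, a relative of BCL2, differed by 0.58. Both BNIP3 genes are known to be induced by hypoxia, and CHEK1 and BIRC5 are known cell cycle genes.

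**Figure D4:**
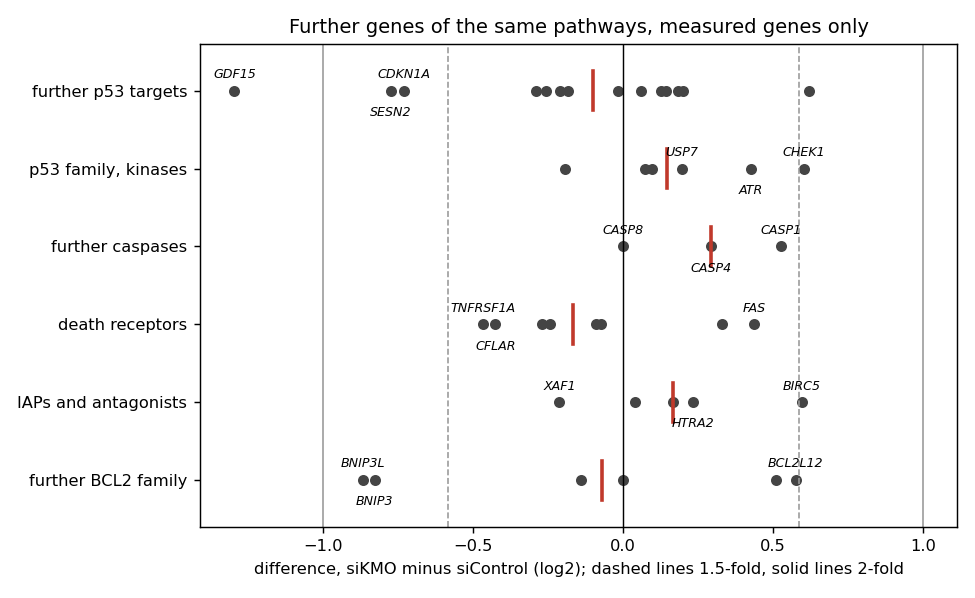
Difference siKMO minus siControl (log2, horizontal axis) of each measured gene in 6 further lists (rows), with a red bar at the list's median and up to 3 genes with the largest differences named. GDF15 lies at -1.30, past the 2-fold line, and BNIP3L and BNIP3 at -0.87 and -0.83, while the medians lie between -0.17 and 0.29.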

How the data were processed

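Total RNA of MDA-MB-231 cultures was hybridised to 2 arrays, 1 for siKMO and 1 for siControl. Per the labels, the authors applied RMA and deposited log2 values. Affymetrix Expression Console is the tool named in the submitters' processing notes, and which arrays entered the normalization is not stated there. RMA values have no detection call, so weak probe sets sit at a background level and differences of weak genes are compressed. The number of arrays limits the precision.

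Of 54675 probe sets, 41091 carried 1 gene in the platform annotation, 1801 carried several and named none, 11721 were not listed and 62 were array controls. Symbols were updated by gene identifier for 41037 of them against RefSeq (GRCh38.p14) and 54 kept their symbol. No member needed an older symbol. Gene values, the minimum of 6 and the limits of 2-fold and 1.5-fold were as given above. Where 1 array lay under 6, the fold is a lower bound, while counts and medians use deposited values. The text names all members and, of each further list, up to 3 measured genes with the largest absolute difference. Members, lists and settings were chosen with earlier results of these data known. Alternatives were other level minimums, the mean over all probe sets, leaving out _x_at and _s_at probe sets, median centring, a lowess trend and levels under 6 set to 6. The calculation was tested on simulated data. Python 3.11.15, pandas 2.3.3 and statsmodels 0.14.6 were used.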

Additional observations from a re-analysis of the deposited data

How the results depend on the processing

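No paired analysis was possible because each condition has 1 array. A value counts here as moved when it shifted by more than 0.075, taken from the median range between the probe sets of a gene, since no replicate gives a spread. The median over the members and the count of 2-fold higher genes did not move under any of the 8 alternatives, and the count of 1.5-fold higher genes was 2 or 3. With the mean over all probe sets of a gene, 0 members were 2-fold lower and 1 was 1.5-fold lower. That 1 was PMAIP1 at -0.59, since GADD45B moved to -0.54 and TP53INP1 was no longer above the minimum. CASP2 also lost its 1.5-fold call there, at 0.43. At 1.5-fold, 1 (TP53INP1) was lower when _x_at and _s_at probe sets were left out, and 4 were lower after removal of a lowess trend, where PMAIP1 and BCL2L1 also passed, beside 2 as reported. With the mean over all probe sets, the role medians were -0.17 for p53 regulators, -0.16 for p53-induced genes, 0.11 for BH3-only proteins, 0.11 for effectors, -0.23 for pro-survival proteins, -0.0077 for the apoptosome and 0.28 for caspases. Signs thus turned for p53 regulators, effectors and the apoptosome, but 1, 2 and 3 of their genes were above the minimum there, the first being MDM4 alone. Without _x_at and _s_at probe sets they were 0.12 for p53 regulators, 0.18 for pro-survival proteins, against -0.04 as reported, and 0.68 for caspases, the last being CASP2 alone. Without a minimum the BH3-only median was 0.071, and at a minimum of 7 the apoptosome median was -0.0077. With levels under 6 set to 6, AEN differed by 0.45 and 2 members were 1.5-fold higher. Of 209 values of single members under the alternatives, 10 moved. Many of the 209 could not move, because a level minimum leaves a gene's difference as it is and median centring adds 1 small constant. The moved values came with the mean over all probe sets, without _x_at and _s_at probe sets and, for AEN, with levels under 6 set to 6. None of the 5 members past 1.5-fold changed sign where it had a value, while MCL1 turned to 0.12 with the mean over all probe sets and to 0.18 without _x_at and _s_at probe sets. Fewer genes were tested with the mean over all probe sets (21 members) and without _x_at and _s_at probe sets (18 members).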
